A study of Mus musculus with 10 samples.

Results

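The insulin-like growth factor (IGF) family of the mouse testis was followed here through 10 genes: the ligands Igf1 and Igf2, the receptors Igf1r and Igf2r, and the binding protein genes Igfbp2, Igfbp3, Igfbp4, Igfbp5, Igfbp6 and Igfbp7. They were taken by gene name from a deposited table of 30719 genes, and all 10 were found, each on a single row. RNA of whole testes had been sequenced at postnatal day 10 in 5 FXR-/- mice, which lack the bile acid receptor FXRα encoded by Nr1h4, and in 5 wild-type (WT) mice. The labels give every mouse a mixed background of 129sv and C57Bl origin, and each mouse gave its own library, run together on 1 flowcell. They name neither the deleted part of the gene nor any treatment, and nothing in them points to deletion in a single cell type. Libraries are called by the number in their titles: 8, 9, 10, 11 and 12 for FXR-/-, and 3, 4, 5, 6 and 9 for WT.

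IGF1 and IGF2 are secreted peptides related to insulin. Both signal through the tyrosine kinase receptor IGF1R, whereas IGF2R, the mannose 6-phosphate receptor, takes IGF2 up for degradation and does not pass on a growth signal. In body fluids and tissue matrix the ligands are held by IGF-binding proteins, which limit or prolong their access to the receptor and are themselves cut by proteases. In the testis, IGF1 is made by Leydig and Sertoli cells among others, and signalling through the insulin receptor family is needed for Sertoli cell number and for gonad formation in mice.

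Of the 10 genes, Igfbp2 alone passed the test between genotypes and was higher in FXR-/- testes. To show where it is read from, 300-base windows around RefSeq transcription starts (250 bases before and 50 after, GRCm38.p6) are printed for Igfbp2, for its neighbour Igfbp5, and for Igfbp6, the member with the lowest fold change. Igfbp2 has a second start, and its window at chr1:72825137-72825436 held none of the motifs searched. Capitals mark GC boxes (GGGCGG, or CCGCCC on the other strand) in the first sequence and CCAAT (or ATTGG) in the last, and the Igfbp5 window held no match to any motif searched.
Igfbp2, chr1:72824230-72824529, plus strand: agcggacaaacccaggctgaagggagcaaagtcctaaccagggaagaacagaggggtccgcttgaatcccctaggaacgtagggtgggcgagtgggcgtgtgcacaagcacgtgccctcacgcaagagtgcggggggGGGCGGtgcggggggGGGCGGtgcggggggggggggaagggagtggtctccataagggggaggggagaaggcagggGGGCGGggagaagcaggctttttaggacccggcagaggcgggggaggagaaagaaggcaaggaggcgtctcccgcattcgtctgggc
Igfbp5, chr1:72874816-72875115, minus strand: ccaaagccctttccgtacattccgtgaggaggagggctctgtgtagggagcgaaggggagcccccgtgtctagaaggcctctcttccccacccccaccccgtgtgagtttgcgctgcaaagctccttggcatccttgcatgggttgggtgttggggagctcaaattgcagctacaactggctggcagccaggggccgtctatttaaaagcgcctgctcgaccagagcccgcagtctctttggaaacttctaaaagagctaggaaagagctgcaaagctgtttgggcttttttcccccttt
Igfbp6, chr15:102143936-102144235, plus strand: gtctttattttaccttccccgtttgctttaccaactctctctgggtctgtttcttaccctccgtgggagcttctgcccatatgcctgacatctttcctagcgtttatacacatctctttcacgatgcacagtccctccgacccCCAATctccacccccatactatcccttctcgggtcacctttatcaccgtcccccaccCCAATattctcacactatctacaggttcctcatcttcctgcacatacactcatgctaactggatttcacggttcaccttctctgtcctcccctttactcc

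The Igfbp2 window held 3 GC boxes and no TATAAA, and 67% of its bases were G or C. The Igfbp6 window held 2 CCAAT boxes and 49.7% G or C. It lies wholly before the GENCODE start of Igfbp6 (102144362), as the Igf1r window does for Igf1r, so RefSeq and GENCODE starts differ there. Over all 14 windows of the 10 members, 6 held a GC box and 3 a CCAAT box, against 35.7% and 37.4% of 32851 RefSeq windows. The hexamer AGGTCA, which many nuclear receptors bind, searched on both strands, lay in 4 of the 14 windows (Igf1, Igf1r, Igf2r and 1 of 4 Igf2 starts), against 16.3% of all windows. The inverted repeat of that hexamer, AGGTCA followed by any single base and TGACCT, was in none of the 14 and in 3 of all windows. TATAAA was in 2 of the 14, against 13.6% of all windows. These matches are letters in a window and say nothing of binding.

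The 10 libraries held 32330029 to 39655170 counts each, and the 10 members together took 0.112% to 0.145% of them. Nr1h4 lay near the detection limit, with 8 to 13 counts in FXR-/- and 13 to 26 in WT, so it says little about the labels. Sertoli markers were present in all libraries, as a testis should have, but their summed level was 3187 to 4632 CPM in FXR-/- against 4848 to 5821 CPM in WT. Here CPM is a counts-per-million value, with libraries scaled by trimmed means (TMM), and a gene was called changed at an adjusted p under 0.05 in edgeR's quasi-likelihood test over 18559 genes. Duct epithelium markers went the other way, at 118 to 207 CPM in FXR-/- and 66.0 to 85.7 CPM in WT, and adipocyte markers ranged from 68.5 to 894 CPM in FXR-/- and from 21.1 to 123 CPM in WT. In whole tissue, fewer cells of a type and less RNA per cell cannot be told apart.

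All 10 members were well measured, with at least 1684 counts in each library. Set against gene length, as CPM per kilobase of annotated exons, the binding proteins led. Igfbp7, whose product binds IGFs only weakly, stood at 124 ± 8.66 in FXR-/- and 127 ± 13.9 in WT (SD, n = 5 each), and no other member overlapped it in either genotype. Igfbp6, which prefers IGF2, came next at 53.6 ± 4.28 in FXR-/- and 61.5 ± 4.44 in WT. Igf2 was the higher ligand per kilobase, with 38.9 ± 5.82 in FXR-/- and 36.5 ± 4.53 in WT, above Igf1 with 19.8 ± 4.07 in FXR-/- and 18.8 ± 2.13 in WT. The signalling receptor Igf1r was lowest, at 5.08 ± 0.425 in FXR-/- and 5.26 ± 0.257 in WT, below Igf2r with 18.7 to 22.0 in FXR-/- and 19.1 to 21.2 in WT.

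The order per kilobase differed between genotypes mainly in the place of Igfbp2. In FXR-/- testes it ran Igfbp7, Igfbp6, Igfbp2, Igf2, Igfbp4, Igfbp3, Igf2r, Igf1, Igfbp5, Igf1r, and in WT testes Igfbp7, Igfbp6, Igf2, Igfbp4, Igfbp2, Igfbp3, Igf2r, Igf1, Igfbp5, Igf1r. Neighbours in this order whose libraries did not overlap in FXR-/- were Igfbp7 above Igfbp6, Igfbp4 above Igfbp3, and Igfbp5 above Igf1r. In WT they were Igfbp7 above Igfbp6, Igfbp6 above Igf2, Igf1 above Igfbp5, and Igfbp5 above Igf1r. All other neighbours overlapped. Igfbp2 made up 16.4 ± 1.94% of the summed binding protein level per kilobase in FXR-/- and 11.2 ± 1.82% in WT, while Igfbp6 made up 18.0 ± 0.800% in FXR-/- and 21.2 ± 0.563% in WT (SD, n = 5 each). Neither of these shares overlapped between genotypes, and since shares of a sum push against each other they are given without a test.

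**Figure D1:**
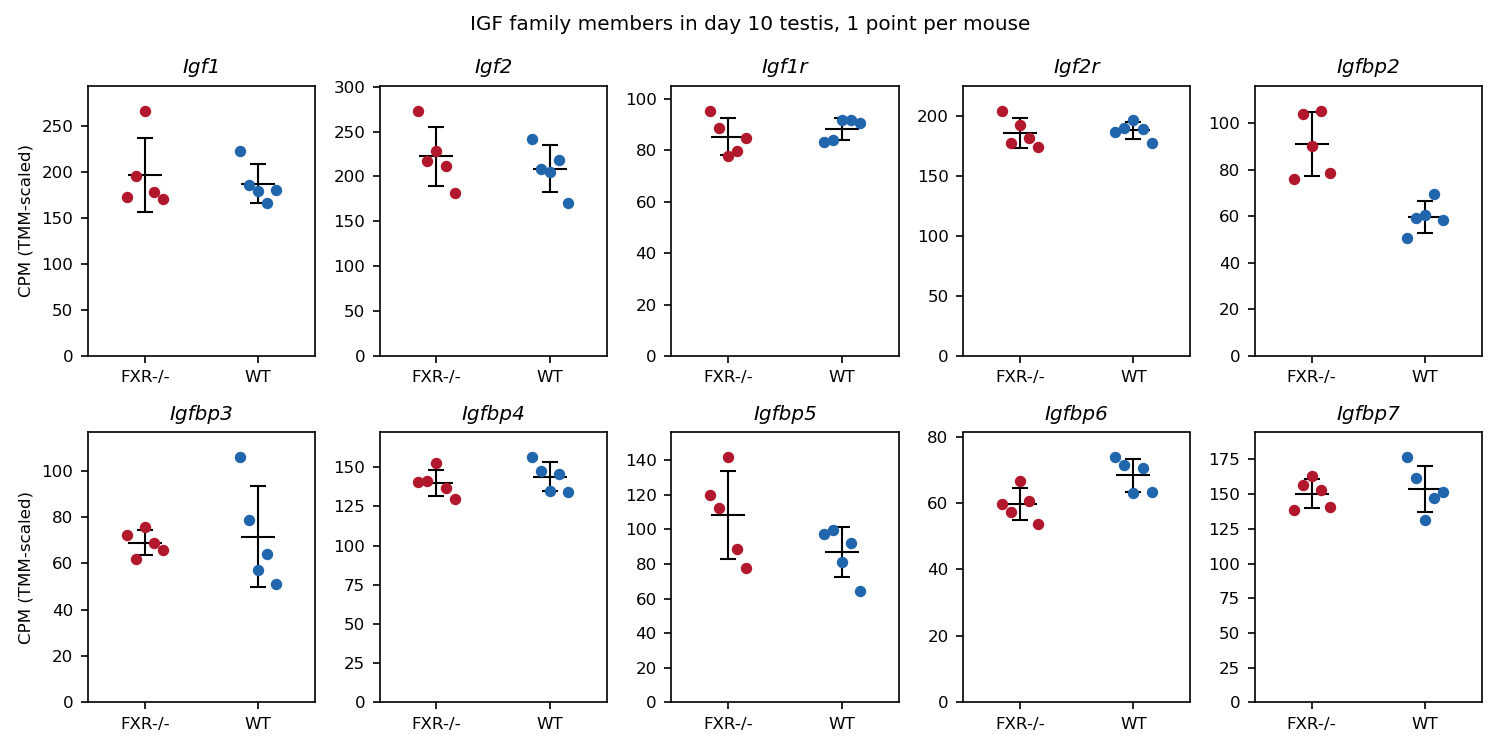
Each panel plots one IGF family gene in TMM-scaled CPM (vertical axis from 0) in FXR-/- mice at the left and WT mice at the right; points are mice, ordered by library number, with the mean and SD in black. The 5 FXR-/- values of Igfbp2 (75.8 to 105 CPM) all lie above the 5 WT values (50.7 to 69.5 CPM), and in the other 9 panels the genotypes overlap.

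Igfbp2 (ENSMUSG00000039323, GRCm38 chromosome 1, 72824503 to 72852474, plus strand) encodes a binding protein with an affinity for both ligands. It stood at 75.8, 104, 90.1, 105 and 78.7 CPM in FXR-/- libraries 8 to 12, against 50.7, 59.0, 60.4, 69.5 and 58.4 CPM in WT libraries 3, 4, 5, 6 and 9. All FXR-/- libraries were above all WT libraries, with FXR-/- 9 and 11 highest and WT 3 lowest. The means were 90.8 ± 13.8 CPM in FXR-/- and 59.6 ± 6.71 CPM in WT (SD, n = 5 each). Igfbp2 rose 1.52-fold (log2 fold change 0.61, SE 0.105, 95% interval 0.38 to 0.84, edgeR adjusted p = 0.00402). Among all tested genes 13.9% were called, 6.17% as higher, and 11.6% had no overlap between genotypes (5.12% with FXR-/- higher and 6.44% with FXR-/- lower). The count of 1 called and non-overlapping member in 10 is thus near the background.

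The call of Igfbp2 did not rest on a single library: leaving out each in turn gave a log2 fold change of 0.55 to 0.67 and an edgeR adjusted p of 0.002 to 0.0125. Without FXR-/- libraries 9 and 10, the highest in adipocyte markers, it was 0.54 (adjusted p = 0.0168). All 6 duct epithelium markers were called higher, 6 of 7 adipocyte markers were called higher and 7 of 12 Sertoli markers were called lower in the same libraries. The edgeR call of Igfbp2 was lost with the mean level of duct epithelium markers as a covariate (log2 fold change 0.26, adjusted p = 0.822), with that of adipocyte markers (0.47, adjusted p = 0.108) and with that of Sertoli markers (0.65, adjusted p = 0.207). Duct and Sertoli levels each separate the genotypes without overlap, so in those fits the marker level and the genotype cannot be told apart. The calls over the whole table fell to 32 with duct and 216 with Sertoli markers. Adipocyte levels overlapped but were higher on average in FXR-/- (mean log2 CPM 4.09, against 1.31 in WT). They are thus partly tied to genotype too, and calls fell to 1158 with them.

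Igfbp5 (chromosome 1, 72857932 to 72874884, minus strand) lies 5457 bases from Igfbp2 on the opposite strand, and its product is held in the extracellular matrix. It stood at 119.8, 112, 142, 88.6 and 77.8 CPM in FXR-/- libraries 8 to 12, against 97.3, 99.4, 81.0, 92.1 and 64.1 CPM in WT libraries 3, 4, 5, 6 and 9. FXR-/- 8, 9 and 10 lay above every WT library, and FXR-/- 11 and 12 lay among them. The log2 fold change was 0.32 (95% interval -0.03 to 0.66, edgeR adjusted p = 0.205). The order of the FXR-/- libraries differed from that of Igfbp2, as FXR-/- 11 was highest for Igfbp2 and second lowest for Igfbp5. The log2 ratio of Igfbp5 to Igfbp2 counts within a library was 0.23 ± 0.408 in FXR-/- and 0.53 ± 0.316 in WT, and the difference of -0.30 was within the spread between mice (two-sided exact permutation test, p = 0.222, 0.444 after Benjamini-Hochberg adjustment over 4 ratios).

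Igfbp6 (chromosome 15, 102144362 to 102149511, plus strand) stood at 59.8, 57.4, 66.7, 60.6 and 53.7 CPM in FXR-/- libraries 8 to 12, against 73.8, 71.3, 62.9, 70.4 and 63.4 CPM in WT libraries 3, 4, 5, 6 and 9. Only FXR-/- 10 reached into the WT range. With a log2 fold change of -0.20 (SE 0.0644, 95% interval -0.34 to -0.06), it did not pass (edgeR adjusted p = 0.0618). It did pass in DESeq2 (adjusted p = 0.0327), without FXR-/- 10 in edgeR (-0.24, adjusted p = 0.0225), without FXR-/- 9 and 10 (adjusted p = 0.048) and with interstitial fibroblast markers as a covariate (-0.21, adjusted p = 0.00988). In the other 18 of 22 alternatives it did not pass, and edgeR's adjusted p reached 0.14 when single libraries were left out.

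The other binding protein genes differed by less than the spread between mice. Igfbp3, the main carrier of IGFs in blood, ranged from 61.7 to 75.6 CPM (median 68.8) in FXR-/- and from 51.2 to 106 CPM (median 64.1) in WT, and WT library 3 gave the top value. Igfbp4, which inhibits IGF action until it is cut, averaged 140.1 ± 8.27 CPM in FXR-/- and 144 ± 9.33 CPM in WT (SD, n = 5 each). Igfbp7 averaged 150.3 ± 10.5 CPM in FXR-/- and 154 ± 16.9 CPM in WT. Their 95% intervals of the fold were 0.754 to 1.23 for Igfbp3, 0.898 to 1.06 for Igfbp4 and 0.874 to 1.09 for Igfbp7 (edgeR adjusted p = 0.859, 0.687 and 0.815). Igfbp7 shares 85 exon bases with Polr2b on the opposite strand, and the use of strand in counting is not given in the sources used here, so some of its reads are uncertain.

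**Figure D2:**
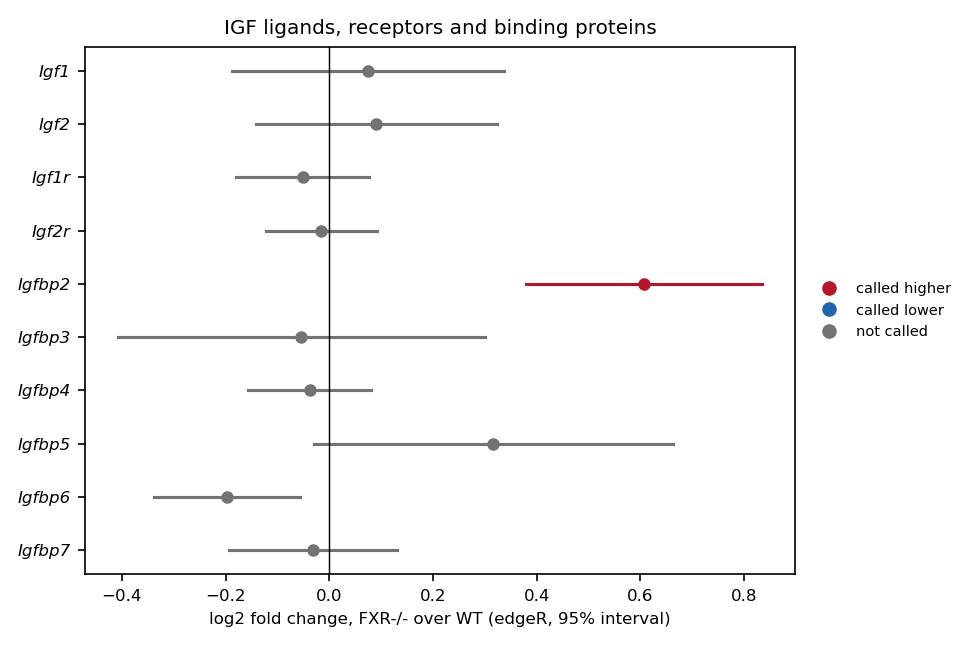
Log2 fold change of FXR-/- over WT (horizontal axis) for the 10 members, with dots for edgeR's estimate and lines for its 95% interval; red is called higher and grey is not called. Igfbp2 at 0.61 stands clear of 0, and the intervals of all members except Igfbp2 and Igfbp6 include 0.

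Igf1 (chromosome 10, 87858265 to 87937042, plus strand) stood at 172, 195, 266, 178 and 170.3 CPM in FXR-/- libraries 8 to 12, against 222, 185, 179, 166 and 180.0 CPM in WT libraries 3, 4, 5, 6 and 9. FXR-/- 10 was far above its group and WT 3 was the highest of WT, and all other libraries of both genotypes lay within 166 to 195 CPM. The log2 fold change was 0.07 with all libraries (95% interval -0.19 to 0.34, edgeR adjusted p = 0.725) and -0.06 without FXR-/- 10, neither passing. Igf2 (chromosome 7, 142650766 to 142666816, minus strand) stood at 273, 217, 228, 211 and 182 CPM in FXR-/- libraries, against 242, 208, 205, 218 and 170.4 CPM in WT libraries in the same order. The ranges overlapped, and the log2 fold change was 0.09 (95% interval -0.14 to 0.32, edgeR adjusted p = 0.611). The log2 ratio of Igf1 to Igf2 counts was -0.19 ± 0.321 in FXR-/- and -0.16 ± 0.167 in WT (mean ± SD of 5 mice each), a difference of -0.03 within the spread between mice (two-sided exact permutation test, p = 0.881, 0.881 after the same adjustment). The 95% interval of the fold ran between 0.878 and 1.26 for Igf1 and between 0.907 and 1.25 for Igf2.

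The receptors varied little between mice, with coefficients of variation of 3.72% to 8.36%. Igf1r (chromosome 7, 67952827 to 68233668, plus strand) stood at 95.5, 88.7, 77.7, 79.9 and 84.8 CPM in FXR-/- libraries 8 to 12, against 83.4, 84.0, 92.0, 92.0 and 90.5 CPM in WT libraries 3, 4, 5, 6 and 9. Igf2r (chromosome 17, 12682406 to 12769664, minus strand) stood at 205, 178, 193, 182 and 174 CPM in FXR-/- libraries, against 186, 190.4, 197, 189.7 and 178 CPM in WT libraries in the same order. Their genotypes overlapped, with intervals of the fold of 0.883 to 1.05 for Igf1r and 0.919 to 1.07 for Igf2r (edgeR adjusted p = 0.604 and 0.863). The log2 ratio of Igf1r to Igf2r was -1.13 ± 0.124 in FXR-/- and -1.09 ± 0.0847 in WT (mean ± SD of 5 mice each), a difference of -0.04 within the spread between mice (two-sided exact permutation test, p = 0.595, 0.794 adjusted over the 4 ratios). The imprinted antisense transcript Airn overlaps the Igf2r gene by 28354 bases but no annotated exon of it, and had 10.4 ± 0.301 CPM in FXR-/- and 9.34 ± 1.07 CPM in WT (edgeR adjusted p = 0.218). Insr, the insulin receptor, likewise did not pass, at 72.5 ± 5.78 CPM in FXR-/- and 71.3 ± 8.32 CPM in WT (edgeR adjusted p = 0.871).

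Igf2 shares an imprinted domain with H19, a noncoding RNA expressed from the maternal chromosome, whereas Igf2 is expressed from the paternal one. H19 lies 72622 bases from Igf2. It stood at 614, 421, 480.3, 363 and 330.2 CPM in FXR-/- libraries 8 to 12, against 336, 294, 321, 321 and 269 CPM in WT libraries 3, 4, 5, 6 and 9. FXR-/- 8 was highest and FXR-/- 12 lay just under WT 3. H19 rose 1.43-fold (log2 fold change 0.52, SE 0.142, edgeR adjusted p = 0.0323), and this call was lost without any 1 of 6 libraries (FXR-/- 9 and 10, WT 4, 5, 6 and 9; adjusted p up to 0.0734).

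The ratio of Igf2 to H19 within a library does not depend on how libraries are scaled. It was 0.446, 0.517, 0.475, 0.582 and 0.551 in FXR-/- libraries 8 to 12, against 0.721, 0.708, 0.639, 0.678 and 0.634 in WT libraries 3, 4, 5, 6 and 9. Every FXR-/- library lay below every WT library. On the log2 scale it was -0.97 ± 0.156 in FXR-/- and -0.57 ± 0.0837 in WT (SD, n = 5 each), a difference of -0.40 (two-sided exact permutation test, p = 0.00794, 0.0317 after Benjamini-Hochberg adjustment over 4 ratios). With 252 ways to assign 5 of 10 mice, no smaller p was possible. The difference was between -0.45 and -0.35 when single libraries were left out, each with an adjusted p of 0.0635. Of this pair H19 was called and Igf2 was not. The ratio uses the same counts, so it is not independent of the H19 call. H19 is in a list chosen with earlier results of these data known, and the adjustment covers the 4 ratios only. The gene Gm49394, on the same strand, shares 3596 exon bases with Igf2 and has no row in the deposited table. Reads there cannot be assigned to either with certainty. A further gene, the antisense Igf2os, shares 98 exon bases with Igf2 and had 3.60 ± 0.367 CPM in FXR-/- and 3.96 ± 0.944 CPM in WT.

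**Figure D3:**
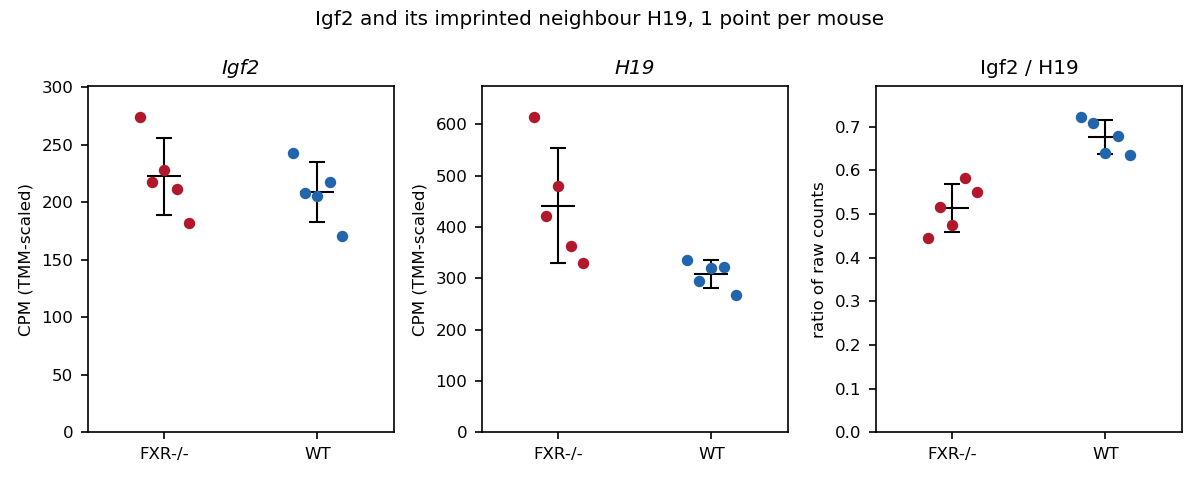
Igf2 and H19 in TMM-scaled CPM and the ratio of their raw counts (vertical axes from 0), FXR-/- at the left and WT at the right of each panel, with 1 point per mouse and the mean and SD in black. Igf2 overlaps between genotypes, while the Igf2 to H19 ratio lies between 0.446 and 0.582 in FXR-/- and between 0.634 and 0.721 in WT.

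Around the 10 members, 29 genes of the wider IGF axis were read off the same test. They cover insulin and its receptor, other binding proteins, IGF2 mRNA-binding proteins, the noncoding H19, Airn and Igf2os, proteases, their inhibitors and growth hormone signalling. Of these, 24 passed the filter on low counts, 2 were called higher (H19 and Ghr) and 22 were not called, against 13.9% called and 6.17% called higher among all tested genes, so this count is near the background. Their median log2 fold change was 0.05, against 0.01 over all tested genes. Ghr, the growth hormone receptor, whose signal drives Igf1 in liver, stood at 28.9, 51.7, 45.4, 34.0 and 31.3 CPM in FXR-/- libraries 8 to 12, against 28.9, 30.0, 24.0, 22.7 and 18.7 CPM in WT libraries 3, 4, 5, 6 and 9. FXR-/- 9 and 10 were highest, as they were for adipocyte markers, and FXR-/- 8 lay within the WT range. Ghr rose 1.54-fold (log2 fold change 0.62, edgeR adjusted p = 0.0333), but the value was 0.33 without FXR-/- 9 and 10 (adjusted p = 0.146) and 0.01 with adipocyte markers as a covariate (adjusted p = 0.984). H19 with the same covariate had a log2 fold change of 0.59, which was not called (edgeR adjusted p = 0.132). Adipocyte markers were themselves higher in FXR-/- (mean log2 CPM 4.09, against 1.31 in WT). Marker level and genotype thus cannot be fully told apart in these fits. The part of adipocyte markers in the Ghr values was not tested. The call of Ghr was also lost without any 1 of 6 libraries (FXR-/- 9, 10 and 11, WT 5, 6 and 9; edgeR adjusted p up to 0.0702).

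Igf1 itself and the growth hormone pathway genes Socs2, Cish, Stat5a and Stat5b did not pass. Socs2, a feedback inhibitor, averaged 114 ± 17.8 CPM in FXR-/- and 129.6 ± 31.7 CPM in WT (SD, n = 5 each; edgeR adjusted p = 0.461). Pappa, the protease that cleaves Igfbp4 and Igfbp5 proteins, averaged 58.5 ± 7.81 CPM in FXR-/- and 66.4 ± 10.2 CPM in WT (edgeR adjusted p = 0.286). Its inhibitor Stc1 had a log2 fold change of -0.49 (edgeR adjusted p = 0.235). Igfbp1, a neighbour of Igfbp3 on chromosome 11 and best known from liver, had 1 to 6 counts in FXR-/- and 1 to 4 in WT and was not tested.

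Downstream of the receptor, 44 genes were all tested, mainly of adaptors, phosphoinositide 3-kinase, AKT, FOXO and mTOR signalling, and including Kl. Of these, 3 were called higher, 9 lower and 32 were not called. With library totals alone in place of TMM, 4 were called higher and 6 lower in edgeR. The TMM factors did not overlap between genotypes, at 0.997 to 1.03 in FXR-/- and 0.981 to 0.993 in WT. The median log2 fold change of the 44 genes was -0.01. Among all tested genes 6.17% were called higher and 7.71% lower. The adaptor gene Grb14, an inhibitor of insulin receptor signalling, stood at 51.2, 50.0, 66.3, 55.4 and 50.9 CPM in FXR-/- libraries 8 to 12, against 92.4, 81.3, 67.7, 77.4 and 77.6 CPM in WT libraries 3, 4, 5, 6 and 9. The genotypes did not overlap, with FXR-/- 10 just under WT 5. Grb14 fell 1.45-fold (log2 fold change -0.53, SE 0.0916, edgeR adjusted p = 0.00399).

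The next genes by p included smaller changes. The docking protein gene Gab1 fell to 89.2 ± 3.32 CPM in FXR-/-, against 107 ± 7.73 CPM in WT (SD, n = 5 each; edgeR adjusted p = 0.00777). Foxo3, a transcription factor that AKT keeps out of the nucleus, fell to 239.7 ± 8.37 CPM in FXR-/-, against 281 ± 16.6 CPM in WT (edgeR adjusted p = 0.00781). Phlpp2, a phosphatase of AKT, rose to 85.5 ± 6.53 CPM in FXR-/-, against 71.3 ± 2.99 CPM in WT (edgeR adjusted p = 0.00925). Their genotypes did not overlap. The adaptor gene Grb7 rose 1.37-fold, and the scarce insulin receptor substrate gene Irs4 rose 1.76-fold (edgeR adjusted p = 0.0213 and 0.0227). Irs4 stood at 4.45, 5.22, 5.26, 9.11 and 5.91 CPM in FXR-/- libraries 8 to 12, against 3.64, 3.54, 3.57, 4.04 and 2.20 CPM in WT libraries 3, 4, 5, 6 and 9. It was highest in FXR-/- 11, the library highest in duct epithelium markers. Grb7 lost its call without FXR-/- 11 or WT 4 (edgeR adjusted p = 0.0567 and 0.0544).

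Irs2, named after its values were seen, fell to 17.1 ± 2.86 CPM in FXR-/-, against 24.5 ± 5.24 CPM in WT (SD, n = 5 each; edgeR adjusted p = 0.037). That call was lost without any 1 of 5 libraries (FXR-/- 10, 11 and 12, WT 3 and 4; adjusted p up to 0.091). The other genes called lower, also named after their values were seen, were Kl (log2 fold change -0.63), Foxo6 (-0.43), Ptpn11 (-0.17), Gsk3b (-0.16) and Tsc1 (-0.12), with edgeR adjusted p between 0.0296 and 0.0474. Kl was scarce, with 48 to 56 counts in FXR-/- and 51 to 100 in WT, and its genotypes overlapped. Of the 10 fits that left out a single library, the call was lost in 9 for Tsc1, 8 for Gsk3b, 6 each for Ptpn11 and Kl, and 4 for Foxo6. Tsc1 lost it in 18 of all 22 alternatives. Irs1 did not pass, at 12.8 ± 0.939 CPM in FXR-/- and 14.4 ± 1.97 CPM in WT (edgeR adjusted p = 0.281). With Sertoli or duct epithelium markers as a covariate edgeR called no signalling gene, and the folds moved both ways. Both marker levels separate the genotypes, so in these fits the marker level and the genotype cannot be told apart. The log2 fold change of Grb7 was -0.051 with Sertoli markers and that of Irs4 -0.60 with duct markers, opposite in sign to their main values. The log2 fold change of Gab1 was -0.29 with Sertoli and -0.32 with duct markers, against -0.26 without them. That of Grb14 was -0.22 with Sertoli and -0.82 with duct markers, against -0.53 without them. The count was lower without some single libraries too, at 5 without FXR-/- 11 or WT 4, 6 without FXR-/- 12 and 7 without FXR-/- 9.

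**Figure D4:**
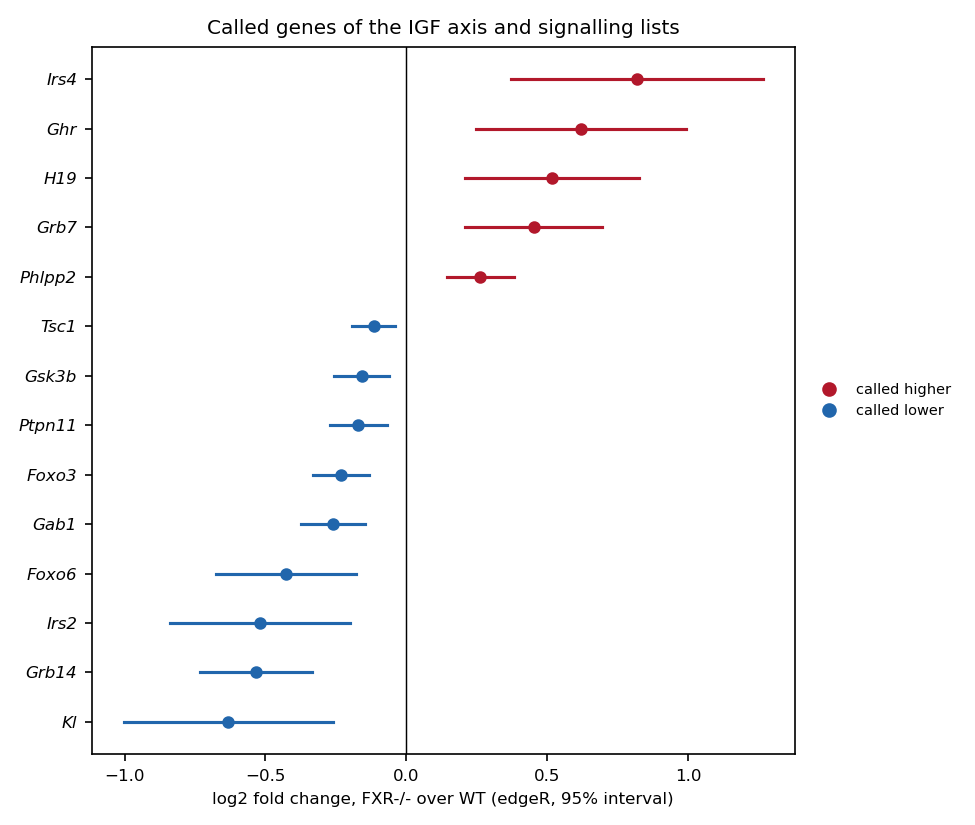
Log2 fold change of FXR-/- over WT (horizontal axis) with edgeR's 95% interval for every called gene of the IGF axis and receptor signalling lists; red is higher and blue is lower in FXR-/-. The estimates run from 0.82 for Irs4 to -0.63 for Kl, and only called genes are drawn.

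Mice of the same genotype differed from each other in a shared way. FXR-/- library 10 had the highest value of its genotype for 6 of the 10 members (Igf1, Igfbp3, Igfbp4, Igfbp5, Igfbp6 and Igfbp7), and WT library 3 for 6 (Igf1, Igf2, Igfbp3, Igfbp4, Igfbp6 and Igfbp7). FXR-/- 12 was lowest for 6 members and WT 9 for 5. FXR-/- 10 and WT 3 were also highest of their genotype in interstitial fibroblast (mean log2 CPM 8.99 and 9.04) and Leydig markers (6.14 and 6.26). This was not particular to these lists. The same libraries were highest of their genotype in Sertoli (7.38 and 7.71) and macrophage markers (3.44 and 3.25). They were lowest in spermatogonia markers (6.83 and 6.68), and in peritubular muscle markers neither was highest. WT 3 was the lowest library in meiotic markers (5.16). FXR-/- 12 was lowest of its genotype in fibroblast markers (8.59). Igfbp2 did not follow this order: it was lowest in WT 3 and, among FXR-/-, highest in library 11 and lowest in library 8. In summed duct epithelium markers FXR-/- 11 was likewise highest (207 CPM) and FXR-/- 8 lowest (118 CPM) of FXR-/-, and WT 3 was lowest of WT (66.0 CPM). By their mean log2 level, however, WT 9 was lowest of WT (2.64). By both measures FXR-/- 9, high in Igfbp2, was second lowest of FXR-/- (137 CPM summed, mean log2 level 3.85). The part of these markers in the Igfbp2 values was not tested beyond the covariate fit above. Fibroblast markers did not separate the genotypes, with 1 of 7 called, and with their level as a covariate Igfbp2 was called at a log2 fold change of 0.62 (edgeR adjusted p = 0.00178).

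**Figure D5:**
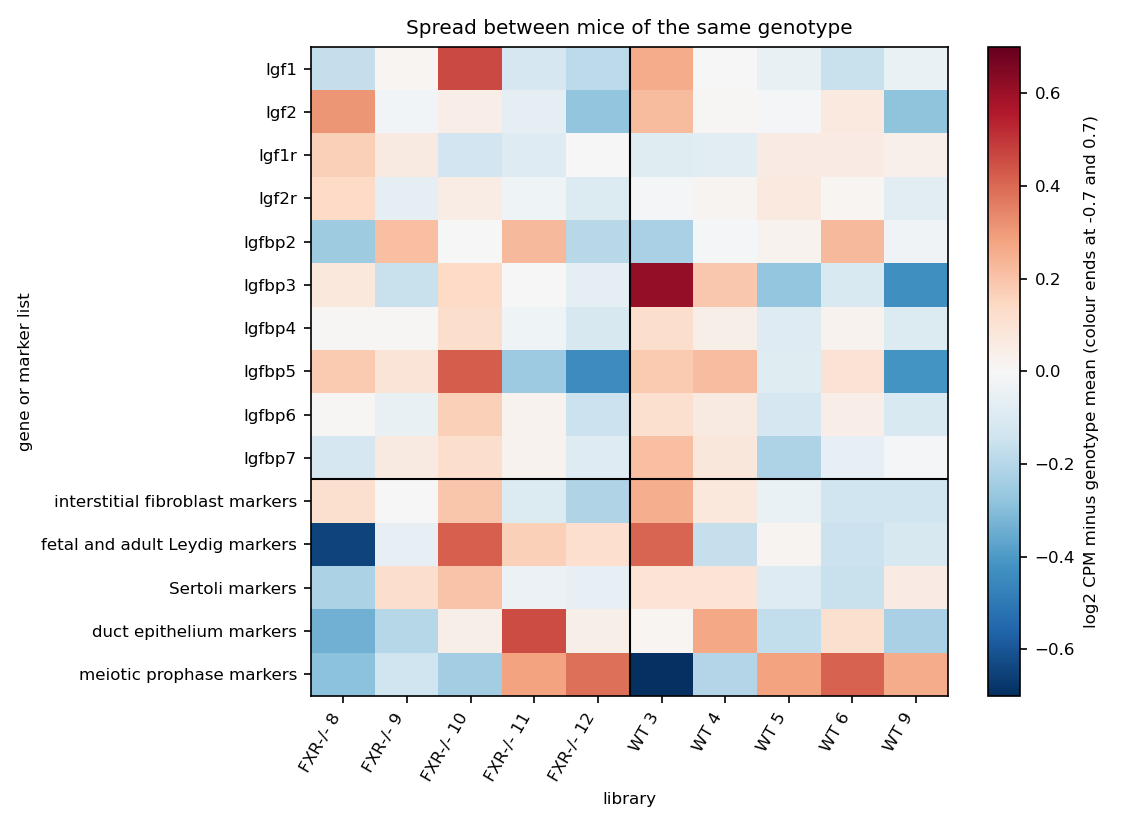
Deviation of each library (columns, FXR-/- at the left, WT at the right) from its genotype's mean log2 CPM for the 10 members and for 5 marker lists (rows); red is above and blue below that mean. FXR-/- 10 and WT 3 are red for Igf1, Igfbp3 to Igfbp7 and the fibroblast markers, and Igfbp2 is blue in WT 3.

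Once genotype means were removed, each member was set beside 13970 genes for likeness over the 10 libraries, as a description without a test. Igfbp3 was most like Tmem47 (Pearson r = 0.99) and Rasl11a (0.98), and Igf1 most like Dusp3 (0.98) and Pcyox1 (0.97). Igfbp5 was most like Snx9 (0.98) and Lyve1 (0.97), Igf2 most like Pard3 and St6galnac4 (0.97 each), and Igf1r most like Rimkla (0.98) and Tubgcp6 (0.97). Igfbp2 had the weakest best match, with Zfp3 at 0.93 and Grk1 at 0.92. Among the 45 pairs of members the closest were Igfbp4 with Igfbp6 (0.94) and Igfbp4 with Igfbp5 (0.89), and the most opposed were Igf1r with Igfbp7 (-0.70). All of these values rest on the same 10 libraries, which differ in tissue makeup and depth. The best of 13970 genes over 10 libraries can reach a high r even when unrelated, and that level was not computed.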

How the data were processed

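RNA of whole testes of 5 FXR-/- and 5 wild-type mice had been extracted with Trizol and made into TruSeq libraries, per the labels' protocols. The deposited table gives raw counts per Ensembl gene for each library, made by the authors. FastQC 0.10.1, CASAVA, Bowtie, TopHat2 2.0.10, Bowtie2 2.1.0 and the build mm10 are named in the submitters' processing notes, with no role given. For the counter, annotation and use of strand, the sources used here give nothing. The authors' normalized columns had lost their decimal marks and were not used.

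Under R 4.3.3, edgeR 4.0.16 kept 18559 genes (filterByExpr) and compared genotypes by its quasi-likelihood test, with TMM scaling, genotype alone in the model and Benjamini-Hochberg adjustment over those genes. The script was tested on simulated data. Standard errors were taken as the log2 fold change over the root of F, and folds are FXR-/- over WT. DESeq2 1.42.0, limma-voom 3.58.1, other scalings and filters, left-out libraries and marker covariates were alternatives. The 4 ratios of counts within a library were compared by exact permutation (scipy 1.17.1). Positions and exon lengths came from GENCODE M21 on GRCm38 and windows around starts from RefSeq (GRCm38.p6).

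Named genes were all members, H19, Insr, Ghr and Igfbp1, every called axis gene and the 6 called signalling genes with the smallest p; other pathway genes named were added after their values were seen. Members, lists and alternatives were chosen with earlier results of these data known. No pair of libraries agreed within sampling noise (chi-square per degree of freedom at least 4.07). Mice share no numbers that pair them. P-values cover the spread between these mice, and counts of 1 library set a precision that covers counting error only.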

Additional observations from a re-analysis of the deposited data

Results flagged for a closer look

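In FXR-/- testes, library 10 stood apart in Igf1, at 266 CPM against 170.3 to 195 CPM in the other FXR-/- libraries. Its gap to the next library was 0.74 of the whole range of the group, above the 95% critical value of 0.71 for 5 samples. It was the only one flagged of 34 groups examined, and chance flags about 1 group in 20. The same library was highest of its genotype in interstitial fibroblast, Leydig, Sertoli and macrophage markers (mean log2 CPM 8.99, 6.14, 7.38 and 3.44). The part of these in the Igf1 value was not tested. Without it the log2 fold change of Igf1 was -0.06, against 0.07 with all libraries, neither passing in edgeR.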

How the results depend on the processing

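The call of Igfbp2 kept its direction in all 22 alternatives (log2 fold change 0.26 to 0.67) and was lost in the 3 fits with adipocyte, duct epithelium or Sertoli markers as covariate. The number of members called was 1 in the main test, 2 in DESeq2, 2 without FXR-/- libraries 9 and 10 and 2 with fibroblast markers as covariate, 0 with adipocyte, duct or Sertoli markers, and 1 to 2 when single libraries were left out; the second was Igfbp6, lower. Called axis genes numbered 2, against 1 without FXR-/- 9 and 10, 0 with adipocyte or duct markers, 1 with Sertoli markers, 3 with fibroblast markers, library totals or DESeq2, and 0 to 3 without single libraries. Called signalling genes numbered 12, against 5 with adipocyte markers, 0 with duct or Sertoli markers, 17 with fibroblast markers and 16 in DESeq2. They numbered 10 with library totals and 5 to 12 without single libraries. Among all tested genes, 2576 were called, against 1158, 32, 216 and 4302 with adipocyte, duct, Sertoli and fibroblast markers, and 1427 to 2867 without single libraries (1427, 1601 and 1635 without FXR-/- 11, WT 4 and FXR-/- 12). The Igf2 to H19 difference of -0.40 was -0.45 to -0.35 without single libraries, -0.37 without FXR-/- 9 and 10 and -0.39 between medians, with permutation p adjusted over the 4 ratios of 0.0635, 0.143 and 0.19. With a mouse left out the smallest possible p is larger, so the p-values of the smaller sets say little of stability. The test on medians used all mice, but several assignments of mice share the same medians. With the other ratios as they were, 0.19 was the smallest adjusted permutation p it could give, so it says little too. Grb7 was -0.051 with Sertoli and Irs4 -0.60 with duct markers, both opposite in sign to their main values and not called; the cause was not tested. Igf2r and Igfbp7, near 0, changed sign under other scalings (2 and 1 of 3). The median of all genes moved from 0.01 to at most 0.05 with library totals, which called 61.5% of changed genes higher, against 44.5% in the main test and 53.0% with upper-quartile scaling. No paired analysis was possible because the genotypes share only the number 9.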
